A study of Mus musculus with 6 samples.

Results

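The genes described here decide whether a T cell dies: the death receptor Fas, the p53 regulator Mdm2, and members of the BCL-2 family, which control the mitochondrial route to apoptosis. They are 10 named genes, Fas, Mdm2, Bax, Bid, Bcl2, Bcl2l1, Bcl2l11, Mcl1, Bbc3 and Pmaip1. Every probe set whose annotation names exactly 1 of them was taken, which gave 9 probe sets for 9 genes among 34760 probe sets on the array. Bax was not analysed here, since the annotation used here gives no probe set that names it alone. Affymetrix arrays measured RNA levels in CD4+ T cells from C57BL/6 mice, described as 6 weeks old, with 3 arrays for wild-type (WT) animals and 3 for animals deficient in cystathionine beta-synthase (CBS-KO). That enzyme, CBS, condenses homocysteine with serine and can release hydrogen sulfide. The labels call the arrays of each genotype biological replicates. They do not state how the cells were isolated, whether animals were pooled, or in which tissues the gene was deleted. All 9 probe sets were bright enough to be tested, at the 53.2 to 98.1 percentiles of mean level over the array.

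Cell death in T lymphocytes runs along an outer and an inner route. In the outer route, Fas ligand engages Fas, and the adaptor FADD recruits caspase-8, which can cut the protein BID to recruit mitochondria to the same signal. In the inner route, BH3-only proteins such as BIM (gene Bcl2l11), PUMA (Bbc3) and NOXA (Pmaip1) neutralise the survival proteins BCL-2, BCL-XL (Bcl2l1) and MCL-1, after which BAX or BAK opens the outer mitochondrial membrane. The tumour suppressor p53 induces Fas, Bax, Bbc3, Pmaip1 and Mdm2, and MDM2 in turn marks p53 for degradation. BCL-2 and MCL-1 keep resting T cells alive, and BIM removes T cells after an immune response.

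Fas and Mdm2 fell and Bid rose in CBS-KO cells, and the other 6 genes did not pass the test. Levels are log2(intensity + 16), differences are CBS-KO minus WT, and a probe set was called at a limma p, adjusted over all 20856 tested probe sets, below 0.05. Of the 9 probe sets 3 were called, 2 lower and 1 higher, where over all tested probe sets 9.57% were called, 4.47% lower and 5.09% higher. The groups did not overlap for 4 of the 9, 3 lower and 1 higher, against 36.7% of all tested probe sets, 21.7% lower and 15.0% higher. The median difference of the 9 was -0.19 beside -0.05 over all tested probe sets, and 6 of the 9 differences were negative against 57.2% overall. The share without overlap was thus near that of the whole array.

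The sequences upstream of the 3 called genes are shown, of which Fas and Mdm2 moved in the same direction and Bid in the other. Each is the 250 bases before the annotated start of transcription, from RefSeq on GRCm38.p6, written along the strand of the gene. They lie at chr19:34290409-34290658 on the plus strand for Fas, chr10:117710759-117711008 on the minus strand for Mdm2, and chr6:120916825-120917074 on the minus strand for Bid. Capitals mark matches on either strand to 5 motifs: the p53 half-site, the FOXO motif GTAAACA, the E-box CACGTG, the GC box GGGCGG and the CCAAT box CCAAT. No marked matches overlap each other in these windows.
Fas: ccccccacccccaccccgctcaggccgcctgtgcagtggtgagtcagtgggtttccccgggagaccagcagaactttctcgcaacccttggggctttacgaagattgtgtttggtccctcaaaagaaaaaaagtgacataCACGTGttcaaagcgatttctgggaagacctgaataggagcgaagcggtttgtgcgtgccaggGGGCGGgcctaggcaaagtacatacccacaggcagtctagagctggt
Mdm2: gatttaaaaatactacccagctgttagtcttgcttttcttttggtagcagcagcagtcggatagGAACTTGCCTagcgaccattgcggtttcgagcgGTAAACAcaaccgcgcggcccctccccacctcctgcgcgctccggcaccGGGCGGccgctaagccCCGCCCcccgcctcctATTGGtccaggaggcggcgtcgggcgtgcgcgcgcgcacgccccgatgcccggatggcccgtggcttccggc
Bid: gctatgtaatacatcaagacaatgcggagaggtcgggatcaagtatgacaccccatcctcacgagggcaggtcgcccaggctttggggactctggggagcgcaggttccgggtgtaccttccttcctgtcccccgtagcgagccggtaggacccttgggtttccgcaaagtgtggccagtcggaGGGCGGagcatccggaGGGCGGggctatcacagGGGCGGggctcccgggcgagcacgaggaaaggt
The Mdm2 window held 1 p53 half-site match, GAACTTGCCT, whose first base lies 186 bases before the start, and 1 FOXO match at 153 bases. Of 32851 windows of this length in the annotation, 7.13% held the p53 half-site and 3.17% the FOXO motif. The Fas window held 1 E-box at 110 bases and 1 GC box at 47 bases, and the Bid window held 3 GC boxes and no other match. An E-box was found in 6.02% of all windows, a GC box in 32.7% and a CCAAT box in 33.8%. These matches describe the letters of the windows only. The well-known p53-responsive regions of Mdm2 and Fas lie in their first introns, which these windows do not cover.

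Fas, the receptor through which activated T cells are killed by Fas ligand, had the largest difference of the group. The WT arrays 1 to 3 had log2 levels of 8.79, 8.76 and 8.63, and the CBS-KO arrays 1 to 3 had 7.81, 8.11 and 7.64. The groups were separate, with CBS-KO 3 lowest and CBS-KO 2 nearest to WT. The difference was -0.87 (SE 0.15, 95% confidence interval -1.24 to -0.50, n = 3 per group, limma adjusted p = 0.0251), a 1.83-fold lower level. An exact two-sided permutation test on the group means gave p = 0.1, the smallest that 3 against 3 arrays allow, and the same held for Mdm2, Bid and Mcl1. Fas kept its direction under all 16 alternatives. Its call was lost without WT 1 (adjusted p = 0.121), WT 2 (0.117), WT 3 (0.0608) or CBS-KO 1 (0.107), within a range of 0.00439 to 0.121.

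Mdm2, the ubiquitin ligase that restrains p53, was lower by a smaller amount and with little spread. Its log2 level was 11.13, 10.95 and 10.99 in WT and 10.55, 10.61 and 10.53 in CBS-KO arrays, without overlap. The SD among CBS-KO arrays was 0.046 against 0.095 among WT arrays, while over all tested probe sets the median SD was 0.214 and 0.112. The difference was -0.47 (SE 0.10, 95% confidence interval -0.70 to -0.23, limma adjusted p = 0.0365), a 1.38-fold lower level. This call was close to the threshold. Among other settings, it was lost with no filter on dim probe sets (0.0555), with a common array median (just above 0.05), and when any 1 array other than CBS-KO 2 was left out. Leaving out WT 1 gave 0.170, WT 2 0.132, WT 3 0.0874, CBS-KO 1 0.141 and CBS-KO 3 0.0596, within a range of 0.0128 to 0.170. The direction held under all 16 alternatives.

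Bid, the BH3-only protein that links the death receptors to mitochondria, was the only one of the 9 called higher. Its log2 level was 9.17, 9.04 and 9.30 in WT and 9.82, 9.78 and 9.97 in CBS-KO arrays. Every CBS-KO array lay above every WT array, with a gap between the groups larger than the range within either one. The difference was 0.69 (SE 0.13, 95% confidence interval 0.39 to 0.99, limma adjusted p = 0.0270), a 1.61-fold higher level. The call was lost without WT 1 (adjusted p = 0.131), WT 2 (0.129), WT 3 (0.0552) or CBS-KO 1 (0.112), within a range of 0.0106 to 0.131, and the direction held under all 16 alternatives.

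**Figure D1:**
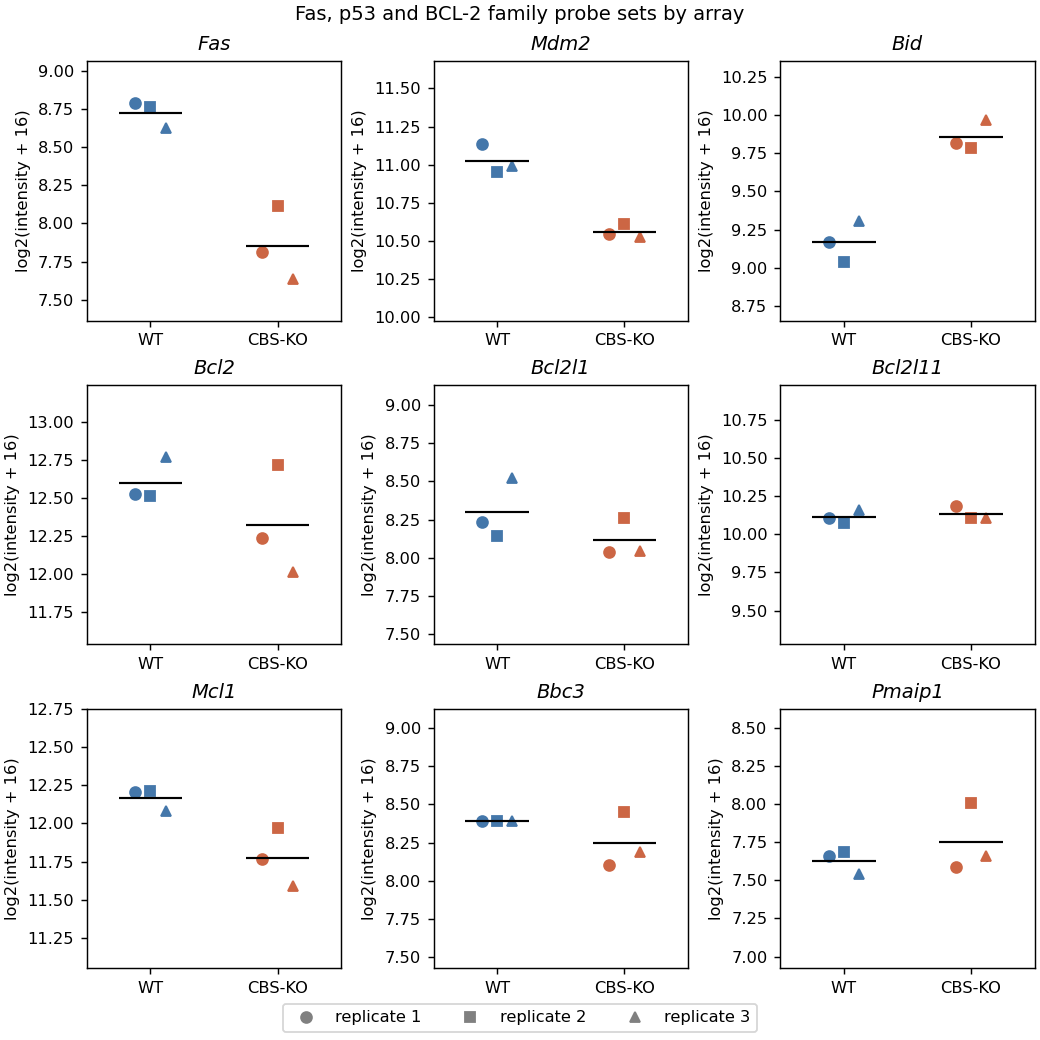
Log2(intensity + 16) of the 9 probe sets on each array, 1 panel per gene, with WT in blue, CBS-KO in orange, marker shape for the replicate number and a line at the group mean (n = 3). Every panel spans the same log2 range. Fas, Mdm2 and Mcl1 lie lower and Bid higher in CBS-KO without overlap, and Bcl2l11 is nearly flat.

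The 3 survival genes had negative differences, and none passed the test. Mcl1, a short-lived survival protein on which T cells depend at all stages, had log2 levels of 12.20, 12.21 and 12.08 in WT and 11.76, 11.97 and 11.59 in CBS-KO arrays. These groups did not overlap, and the difference was -0.39 (SE 0.11, 95% confidence interval -0.66 to -0.12, limma adjusted p = 0.0711). Mcl1 passed without CBS-KO 2 (-0.49, adjusted p = 0.0121) and with a model term for Y-linked signal (-0.58, 0.0268), within a range of 0.0121 to 0.226. Bcl2, the survival protein that keeps naive T cells alive downstream of interleukin-7, had log2 levels of 12.52, 12.51 and 12.77 in WT and 12.24, 12.71 and 12.02 in CBS-KO arrays. CBS-KO 2 lay inside the WT range and the other two CBS-KO arrays below it. Its difference was -0.28 (SE 0.18, 95% confidence interval -0.71 to 0.15, adjusted p = 0.347), and without CBS-KO 2 it passed (-0.47, 0.0287), within a range of 0.0287 to 0.689. Bcl2l1, which encodes BCL-XL, had log2 levels of 8.24, 8.14 and 8.53 in WT and 8.04, 8.26 and 8.05 in CBS-KO arrays. The groups overlapped through CBS-KO 2, and the difference was -0.19 (95% confidence interval -0.54 to 0.16, adjusted p = 0.436).

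The BH3-only genes other than Bid did not pass either. Bcl2l11, which encodes BIM, had log2 levels of 10.11, 10.07 and 10.16 in WT and 10.19, 10.11 and 10.11 in CBS-KO arrays. The groups lay on top of each other, with a difference of 0.02 and the interval -0.21 to 0.26 (limma adjusted p = 0.914), and the sign turned after quantile normalization, with the Y-linked term and without CBS-KO 1. Bbc3, which encodes PUMA, had log2 levels of 8.39 on all WT arrays and of 8.11, 8.45 and 8.19 in CBS-KO arrays. Here CBS-KO 2 lay above the WT arrays and the other two below them, and the difference was -0.14 (95% confidence interval -0.46 to 0.17, adjusted p = 0.514). Pmaip1, which encodes NOXA, had log2 levels of 7.66, 7.68 and 7.54 in WT and 7.59, 8.01 and 7.66 in CBS-KO arrays. Only CBS-KO 2 lay outside the WT range, and the difference was 0.12 (95% confidence interval -0.21 to 0.45, adjusted p = 0.604). It was -0.0064 without CBS-KO 2. For Bcl2, Bcl2l1, Bcl2l11, Bbc3 and Pmaip1 the intervals include 0 and do not show that the levels were equal.

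**Figure D2:**
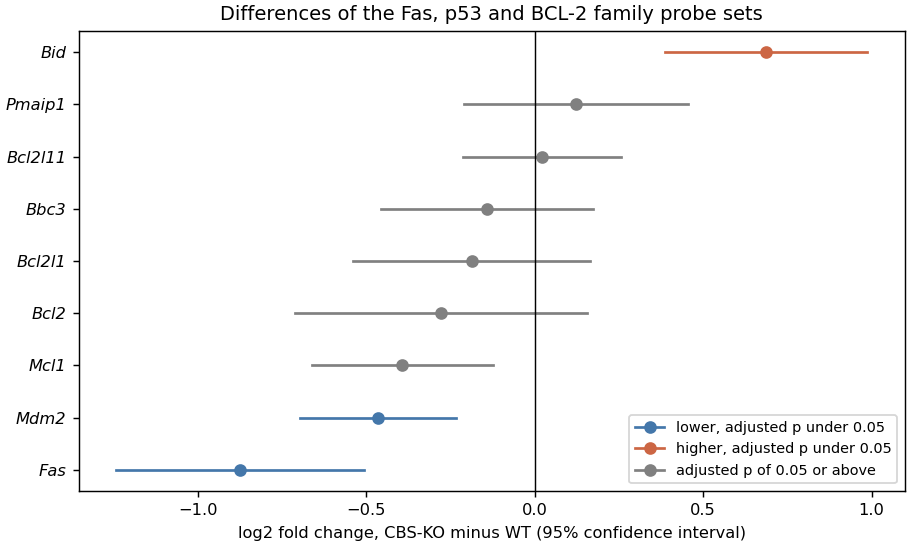
Log2 fold change (CBS-KO minus WT) of each probe set with its 95% confidence interval from limma, ordered by value. Fas (-0.87) and Mdm2 (-0.47) are lower and Bid (0.69) is higher at an adjusted p under 0.05; the grey interval of Mcl1 (-0.66 to -0.12) does not cross 0 but its adjusted p was 0.0711.

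The CBS-KO arrays were not alike, and other cell types' genes moved with the genotype. CBS-KO 2 was the highest of the 3 CBS-KO arrays for 7 of the 9 genes. How often it was highest over the whole array was not counted. Relative to the WT mean, Fas stood at -0.91, -0.61 and -1.09 in CBS-KO 1 to 3 and Mcl1 at -0.40, -0.20 and -0.58. Mdm2 stood at -0.48, -0.41 and -0.50 and Bcl2 at -0.36, 0.11 and -0.59. All 4 had the order of the mean of 11 CD4 T cell genes, which was -0.73, -0.45 and -1.13, although the CBS-KO arrays differed little for Mdm2. The marker lists of B cells and of NK and CD8 T cells had this order too, so it was not particular to CD4 T cell genes. Bid, at 0.65, 0.61 and 0.80, had the opposite order, lowest in CBS-KO 2 and highest in CBS-KO 3. As with Fas, Mdm2, Mcl1 and Bcl2, its CBS-KO 2 value was thus nearest to WT. Bcl2l1, Bbc3 and Pmaip1 had the order of the monocyte and macrophage list, lowest in CBS-KO 1 and highest in CBS-KO 2. Of the 11 CD4 T cell genes tested 5 were called lower, where 4.47% of all tested probe sets were. The summed intensity of the 11 spanned 64233 to 69941 over the WT arrays against 33602 to 53033 over the CBS-KO arrays. In RNA from a mixed sample, fewer cells of a type and less RNA per cell cannot be told apart.

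Genes of neutrophils, monocytes and red cell precursors were higher in CBS-KO. Called higher were 12 of 14 neutrophil, 11 of 13 monocyte and macrophage and 8 of 9 erythroid genes. Over all tested probe sets 5.09% were called higher and 4.47% lower, the shares to set beside each count given here. Summed intensities of the neutrophil genes spanned 1807 to 3453 over the WT arrays and reached 30184 to 38141 over the CBS-KO arrays. For monocyte and macrophage genes the WT span was 4520 to 7894 and the CBS-KO span 20447 to 28840. For erythroid genes these spans were 2174 to 4310 and 17398 to 40410. Of 11 genes of dividing cells 6 were called higher, with means of 1.74, 0.65 and 2.08 above WT in CBS-KO 1 to 3. The erythroid means were 3.27, 2.28 and 3.58, so both lists had the order of Bid. Of 9 B cell genes 1 was called higher. The B cell mean was -0.29, 1.003 and -0.78, highest in CBS-KO 2. Of 8 NK and CD8 T cell genes 2 were called higher and 1 lower, with sums spanning 4734 to 5437 over the WT arrays and 4374 to 8163 over the CBS-KO arrays. No marker was at 0, as intensities on this array were all above 0. The part of these cell types in the values of Fas, Mdm2, Bid and the other genes was not tested.

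Sex-linked genes also differed within the CBS-KO group. The mean log2 level of 3 Y-linked genes was 9.23 and 9.12 in CBS-KO 1 and 2 and 5.22 to 5.35 on the other arrays, and Xist was low on those 2 arrays. With a term for Y-linked signal, the estimate rests on CBS-KO 3 alone. The differences were then -1.09 for Fas, -0.50 for Mdm2 and 0.80 for Bid, each the distance of CBS-KO 3 from the WT mean. For these genes CBS-KO 3 lay farthest from WT of the CBS-KO arrays, so the term could not make their differences smaller. It cannot separate Y-linked signal from genotype. The array medians lay between 7.37 and 7.55. The Cbs probe set did not separate the groups (log2 level 7.35 ± 0.15 in WT and 7.41 ± 0.20 in CBS-KO, SD, n = 3; limma adjusted p = 0.801), and which exons it covers is unknown, so the genotype labels are unchecked by it.

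**Figure D3:**
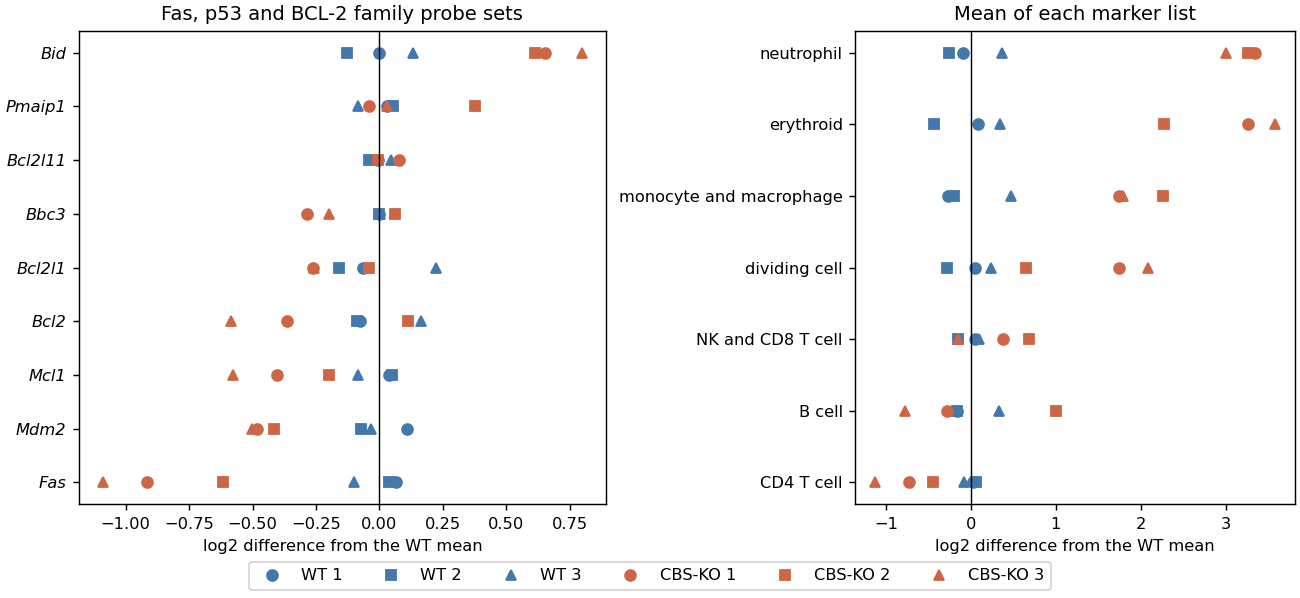
Left, log2 difference of each probe set from its WT mean on every array; right, the mean log2 difference of each marker list (note the wider axis). WT arrays are blue, CBS-KO arrays orange, with marker shape for the replicate number. Fas, Mdm2, Bcl2 and Mcl1 show the same order of CBS-KO arrays as the CD4 T cell, B cell and NK and CD8 T cell lists, from CBS-KO 3 lowest to CBS-KO 2 highest. The neutrophil and erythroid lists stand 2.28 to 3.58 above WT.

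Other genes of these pathways were taken from 9 lists, with 1 probe set per gene. Outside the 10 genes above, 81 genes were tested and 12 were called, 5 higher and 7 lower, which is 14.8% against 9.57% of all tested probe sets. These calls varied with the arrays used: leaving out WT 1, WT 2 or CBS-KO 1 left 0 of the 12, leaving out WT 3 left 1, leaving out CBS-KO 3 left 4 and leaving out CBS-KO 2 left 12. With no filter 3 of the 12 passed. All 5 genes called higher (Bak1, Hipk2, Chek2, Pidd1 and Htra2) had the CBS-KO array order of the dividing cell and erythroid lists. Of the 7 called lower, 5 had that of the CD4 T cell, B cell and NK and CD8 T cell lists, all but Atm and Rrm2b. For a gene that rose and a gene that fell, these orders are the same ranking by distance from WT. CBS-KO 2 lay nearest and CBS-KO 3 farthest. Leaving out CBS-KO 2 raised the calls over the whole array from 1995 to 6427. How often called probe sets over the whole array had these orders was not counted. The part of these cell types in the 12 calls was not tested.

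Around Fas itself, 2 of 10 other death receptor genes were lower and none higher, with a median of -0.29, beside 4.47% called lower and a median of -0.05 over all tested probe sets. Cflar encodes c-FLIP, the inhibitor that blocks caspase-8 at the receptor. Its log2 level was 10.41, 10.49 and 9.96 in WT and 9.41, 9.55 and 9.01 in CBS-KO arrays, a difference of -0.96 (SE 0.20, limma adjusted p = 0.0378) without overlap. Of its other probe sets, 10346551 was called (-1.01, adjusted p = 0.0377) and 10346562 was not (-0.77, 0.0631). Tnfsf10, the death ligand TRAIL, fell by 0.76 (SE 0.17, adjusted p = 0.0431). Casp8, the initiator caspase of the receptor, differed by -0.42 (adjusted p = 0.0711), its adaptor Fadd by 0.32 (0.165) and the ligand gene Fasl by -0.29 (0.484), none past the threshold.

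In the rest of the BCL-2 family, Bak1 was the only gene called. Bak1 encodes BAK, the pore-forming partner of BAX. Its log2 level was 10.15, 10.29 and 10.25 in WT and 10.98, 10.55 and 11.03 in CBS-KO arrays, a difference of 0.63 (SE 0.15, limma adjusted p = 0.0492) without overlap. It passed under 5 of 16 alternatives, with a range of 0.00370 to 0.183, so this call is marginal. The pore-former relative Bok differed by 0.0012 (adjusted p = 0.997), with a sign that turned with the Y-linked term and without WT 1, WT 3 or CBS-KO 2. Among 2 further survival genes and 4 further BH3-only genes, 0 were called in limma, also at an unadjusted p under 0.05: Bcl2l2 (BCL-W) differed by 0.14, Bcl2a1c by -0.05, Bad by -0.07, Hrk by -0.07, Bik by -0.0045 and Bmf by 0.04. The signs of Bmf and Bcl2a1c turned without WT 1, and that of Bmf also without CBS-KO 2 and with the Y-linked term. Bcl2a1c belongs to a family of near-identical copies, so its signal is uncertain. Of 7 more distant relatives, 0 were called and 1 had an unadjusted p under 0.05, the mitochondrial protein gene Bcl2l13 (0.61, adjusted p = 0.119). Bnip1 differed by 0.31 (0.261) and Bnip3l by -0.11 (0.322).

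Most p53 genes did not pass the test. Of 10 regulators other than Mdm2, 2 were higher and 1 lower (median -0.07), where 5.09% of all tested probe sets were called higher and 4.47% lower. Atm, the kinase that activates p53 after double-strand breaks, had log2 levels of 10.25, 10.20 and 10.16 in WT against 9.57, 9.49 and 9.48 in CBS-KO arrays (difference -0.69, SE 0.10, limma adjusted p = 0.0173), with as little spread as Mdm2. It lost its call without WT 1 (0.107), WT 2 (0.0993) or CBS-KO 1 (0.0790), and in no other alternative. Hipk2, a kinase that phosphorylates p53, rose by 0.59 (SE 0.11, adjusted p = 0.0321). Chek2, the checkpoint kinase downstream of ATM, rose by 1.67 (SE 0.39, adjusted p = 0.0464), with log2 levels of 7.88, 7.53 and 7.57 in WT and 9.57, 8.42 and 10.01 in CBS-KO arrays. The Chek2 call is marginal, as it passed under 7 of 16 alternatives. It was lost with a common array median (0.0521) and with no filter (0.0788), among others. Mdm4, the partner of MDM2, differed by -0.52 (adjusted p = 0.0633). Chek1 had the largest difference of these regulators, 2.01 (0.0568). Neither Mdm4 nor Chek1 passed the threshold. Trp53 was not analysed here.

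Of 21 p53 targets outside the 10 genes, 1 was higher and 2 were lower, with a median of 0.04, and the other 18 did not pass. These calls stand beside 9.57% called and a median of -0.05 over all tested probe sets. Rrm2b, the p53-induced ribonucleotide reductase subunit, fell by 0.63 (SE 0.13, adjusted p = 0.0346), with log2 levels of 9.24, 9.06 and 8.97 in WT and 8.47, 8.38 and 8.52 in CBS-KO arrays. Sesn1, a stress-induced inhibitor of mTORC1, fell by 0.65 (SE 0.14, adjusted p = 0.0406). Pidd1, which activates caspase-2 and is induced by p53, rose by 0.89 (SE 0.19, adjusted p = 0.0377). Rrm2b, Sesn1 and Pidd1 each passed under 10 of 16 alternatives. Without WT 1, for example, the limma adjusted p was 0.152 for Rrm2b, 0.165 for Sesn1 and 0.122 for Pidd1. Without CBS-KO 3 it was 0.0581 for Sesn1 and 0.0672 for Pidd1, while Rrm2b still passed (0.0497). With the Y-linked term the Rrm2b difference was -0.57. Cdkn1a was not analysed here.

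**Figure D4:**
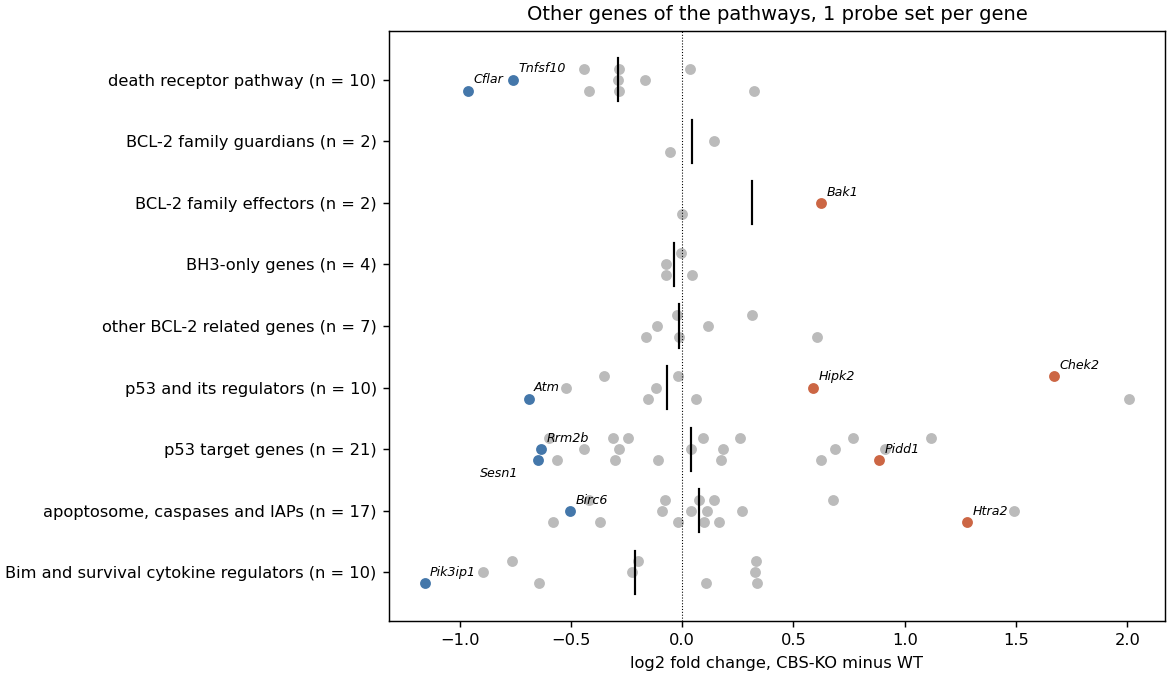
Log2 fold change (CBS-KO minus WT) of the 81 other pathway genes by list, 1 probe set per gene, with genes of several lists drawn in each; blue and orange points with names passed an adjusted p of 0.05, grey points did not, and black bars are list medians. Points are spread vertically for visibility only. The death receptor list lies mostly below 0 (median -0.29), while the p53 lists hold called genes on both sides.

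Downstream of mitochondria, 1 of 17 apoptosome, caspase and inhibitor genes was higher and 1 lower (median 0.08). Over all tested probe sets 5.09% were called higher and 4.47% lower, with a median of -0.05. Htra2, a mitochondrial protease that relieves the block on caspases when released, rose by 1.28 (SE 0.22, limma adjusted p = 0.0244), with log2 levels of 10.70, 10.37 and 10.78 in WT and 12.05, 11.43 and 12.21 in CBS-KO arrays. Birc6, a large inhibitor of apoptosis, fell by 0.50 (SE 0.11, adjusted p = 0.0435) and lost its call after quantile normalization (0.0530), without a variance trend (0.0540) and without CBS-KO 3 (0.0745), among others. Birc2, another inhibitor of apoptosis, differed by -0.42 (adjusted p = 0.0673). Birc5 went the other way, with the largest difference of this list, 1.49 (0.0733), also not past the threshold. Among 10 genes of survival cytokine signalling and its control of Bcl2l11, 1 was lower, again beside 4.47% of all tested probe sets. It was Pik3ip1, a brake on PI3 kinase, which fell by 1.16 (SE 0.25, adjusted p = 0.0398). Foxo1, which maintains naive T cells, differed by -0.90 (adjusted p = 0.0530) and passed under 5 of 16 alternatives, within a range of 0.00246 to 0.177. Il7r, the interleukin-7 receptor chain, differed by -0.64 (adjusted p = 0.0908), and the survival kinase gene Akt1 by 0.33 (0.0903).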

How the data were processed

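Each of the 6 arrays gave 1 intensity per probe set, deposited by the authors on a linear scale. The sources used here do not give the background correction, normalization, probe set summary or genome build. According to the protocols in the labels, cRNA was made from 6 ug of total RNA. Values were turned into log2(intensity + 16). Probe sets with a mean above the 40th percentile were tested, 20856 of 34760, with limma 3.58.1 (eBayes with a trend, two-sided, Benjamini-Hochberg, threshold 0.05) in R 4.3.3, and the model was tested on simulated data. Probe sets were named from the platform annotation: 21640 name 1 gene, 1321 several and 11799 none. A gene with several probe sets was represented by its brightest tested one. Named were all probe sets of the 10 genes, every called gene of each pathway list and, with fewer than 3 called, those of smallest p up to 3. Fadd, Fasl, Bik, Mdm4, Chek1, Birc5 and Il7r were added after their values were seen. The members and lists were chosen with earlier results of these data known. Alternatives changed scaling, filter, offset, variance model and arrays. With 3 arrays per group, their number limits precision. Figures used matplotlib 3.10.9 in Python 3.11.15.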

Additional observations from a re-analysis of the deposited data

How the results depend on the processing

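Under 16 alternatives the 9 probe sets gave 143 values (Pmaip1 was not tested at the 60th percentile filter), of which 120 kept direction and side of the threshold, 16 lost a call, 3 gained one and 4 turned sign. The count of called probe sets, 1995, became 1126 with no filter and 4976 with the term for Y-linked signal, and ran from 73 to 6427 when 1 array was left out. That of the 9 was 3, and ran from 0 to 5 when 1 array was left out: leaving out any WT array or CBS-KO 1 gave 0, leaving out CBS-KO 3 gave 2 and leaving out CBS-KO 2 gave 5. The differences that turned sign were small. Bcl2l11 was -0.0040 after quantile normalization and -0.0051 with the Y-linked term, which gave -0.013 for Bok and -0.21 for Bmf. With 1 array left out, Bcl2l11 ran from -0.0051 to 0.045, Pmaip1 from -0.0064 to 0.20, Bok from -0.081 to 0.076, Bmf from -0.16 to 0.17 and Bcl2a1c from -0.081 to 0.0033. The cause of these changes was not tested. Replicate numbers did not pair the arrays by the rule used: deviations of same-numbered arrays correlated at 0.063, 0.158 and 0.108, though each WT array correlated best with its own number (3 of 3). With the replicate block 2093 probe sets were called, 2 of them among the 9, as Mdm2 lost its call (adjusted p = 0.0653), and 7 of the 12 other pathway genes passed.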

Other observations

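Some arrays carried exactly the same deposited intensity for a probe set. Bcl2l11 had 1086 on WT 1, CBS-KO 2 and CBS-KO 3, Bbc3 had 319 on WT 1 and WT 2, and Pmaip1 had 186 on WT 1 and CBS-KO 3, each equal to all deposited decimals. The SD of Bbc3 among WT arrays was 0.00060 log2 units, against 0.18 among CBS-KO arrays, so its WT spread is not a usual replicate spread. None of the called genes Fas, Mdm2 and Bid had a repeated value.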
